A study of Mus musculus with 10 samples.

Results

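The genes described here make sterols and fatty acids, sense their level, or carry them, and they were followed through their ribosome footprints in mouse embryonic stem cells with and without the proteins that make and use miRNAs. Members were taken from the count table by gene symbol. All 31 of the 31 symbols were present among the 11011 genes of the table, and all 31 passed the filter on low counts that left 10978 genes for testing. They comprise 7 enzymes from acetyl-CoA to farnesyl diphosphate, 11 enzymes from squalene to cholesterol, 6 regulators or carriers, and 7 enzymes of fatty acid synthesis and desaturation.

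Cells build cholesterol from acetyl-CoA through mevalonate, and build fatty acids from the same precursor. Both routes are switched on by SREBP transcription factors, which the genes Srebf1 and Srebf2 encode. When sterols are scarce the escort protein Scap carries an SREBP to the Golgi, where it is cut free to enter the nucleus, and when sterols are plentiful the Insig proteins hold Scap in the endoplasmic reticulum. Oxysterols that build up when sterols are plentiful activate LXR receptors, which raise sterol exporters such as Abca1. Embryonic stem cells divide fast and need both routes for new membrane.

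Ribosome profiling reads the short pieces of mRNA that a ribosome covers and a nuclease leaves. It was done on 10 libraries of the E14 line, a mouse embryonic stem cell line of 129/Ola background taken from a blastocyst, in 5 groups of 2 libraries. The groups were WT (Wild Type) and lines labelled as knockouts of Dgcr8, of Drosha, of Dicer, and of Ago1 and Ago2 together, which are called Dgcr8, Drosha, Dicer and Ago below. All 5 groups grew on gelatine in 15% serum with 100 U/mL LIF, a cytokine that holds these cells undifferentiated, and were given 0.1 mg/mL cycloheximide for 2 min to stop elongation before lysis. Drosophila spike-ins and 12 PCR cycles were common to all libraries. Dgcr8 and Drosha cut primary miRNA transcripts, Dicer cuts the precursors, and Ago proteins hold the finished miRNAs. The labels do not say how the alleles were made or how many clones stand behind a group, and nothing says that the 2 libraries of a group came from separate cultures, so p-values speak only to the spread among these libraries. The table holds no matched mRNA libraries, so a difference in footprints includes any difference in mRNA amount. In such bulk lysates fewer cells of a type and less RNA per cell cannot be told apart.

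Library totals ran from 1754710 counts in Dicer library 2 to 80850950 in Dgcr8 library 1, a 46.1-fold range, and the members held 0.513% to 0.75% of each. Libraries of a group correlated over all genes at r = 0.896 to 0.977 on log2 CPM (reads per 1000000 of the scaled library total). Not every library was closest to the other library of its group. Dgcr8 library 1 correlated with WT libraries 1 and 2 at 0.9585 and 0.9469, and with Dgcr8 library 2 at 0.9277. Drosha library 1 correlated with Dicer library 1 at 0.9512, and with Drosha library 2 at 0.8958. The targeted gene was lower than in WT in Drosha (log2 fold change -2.59, SE 0.33, adjusted p 0.00673), in Dicer (log2 fold change -2.73, SE 0.39, adjusted p 0.00261) and, for Ago2, in Ago (log2 fold change -2.94, SE 0.38, adjusted p 0.00589). For Ago1 the difference of Ago from WT did not pass (log2 fold change 0.37, SE 0.40, adjusted p 0.667). Ago1 was at 14.7 and 14.3 CPM for WT. Ago library 1 lay above both WT libraries at 27.0 CPM, and Ago library 2 under both at 10.7 CPM. Dgcr8 footprints were higher in the libraries labelled Dgcr8 knockout (log2 fold change 2.14, SE 0.26, adjusted p 0.0153). That call was lost in a fit of only the WT and Dgcr8 libraries (adjusted p 0.0975). It was lost too without either WT library or without Dgcr8 library 2, with log2 fold changes of 2.14 to 2.15. The calls of Drosha in Drosha and of Ago2 in Ago were lost without WT library 2 (log2 fold changes -2.59 and -2.94). In CPM, Dgcr8 footprints were 32.7 and 33.1 for WT, 145 and 146 for Dgcr8 and 169 and 198 for Drosha. They were 64.5 and 76.1 for Dicer and 74.6 and 63.5 for Ago, so a rise was not particular to the Dgcr8 label. The counts of the targeted gene thus do not by themselves bear out that label. All libraries are named by their label throughout. The summed level of 8 stem cell markers lay between 4199 and 5599 CPM in all 10 libraries. Single markers within that sum moved in opposite directions. In Dicer 6 of the 8 had a negative fold change and 2 a positive one. Klf4 was at 135 and 158 CPM for WT and 17.4 and 22.1 for Dicer, and Dppa5a at 1082 and 1107 for WT and 2631 and 1516 for Dicer. The WT libraries carried endoderm markers as well, whose sum over 13 genes was 13196 and 14424 for WT, 8653 and 2861 for Dgcr8, 3427 and 2752 for Drosha, 3044 and 2222 for Dicer and 3629 and 2122 for Ago. Those 13 genes include the endoderm factors Sox17, Gata4 and Gata6, and Gata6 was at 0 counts in Drosha library 1, both Dicer libraries and Ago library 1. Of the 13, 6 passed as lower in Drosha, 11 in Dicer, 10 in Ago and 0 in Dgcr8. Over all genes 0.966%, 3.76%, 0.902% and 0.0182% passed as lower in those comparisons.

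Promoters are shown for 6 members, since several members were lower together and SREBPs act at promoters. They are the 5 members called lower in any comparison with WT that have an entry and at least 200 bases to show, and Hmgcs1, which makes the precursor of mevalonate and was the member whose entry held a sterol response element. The sequences come from RefSeq on GRCm38.p6, run 5′ to 3′ on the strand of the gene, and are taken from the 250 bases before the 5′-most RefSeq start, without the bases that lie in a GENCODE exon. Those windows held 214 exonic bases in Msmo1 and 83 in Hsd17b7, which are not shown, 49 in Insig1, 22 in Dhcr7, 17 in Lss and 0 in the others. Capitals mark 4 motifs read on either strand: TCACNCCAC (a sterol response element), CCAAT (the NF-Y box), GGGCGG (the Sp1 box) and CACGTG (the E-box). No pair of these motifs overlaps in the stretches shown.
Hmgcs1: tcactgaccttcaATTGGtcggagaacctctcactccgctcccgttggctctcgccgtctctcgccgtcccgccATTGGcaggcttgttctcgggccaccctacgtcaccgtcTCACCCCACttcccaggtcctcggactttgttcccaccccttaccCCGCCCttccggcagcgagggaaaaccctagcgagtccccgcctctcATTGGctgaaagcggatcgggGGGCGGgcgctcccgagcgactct
Pmvk: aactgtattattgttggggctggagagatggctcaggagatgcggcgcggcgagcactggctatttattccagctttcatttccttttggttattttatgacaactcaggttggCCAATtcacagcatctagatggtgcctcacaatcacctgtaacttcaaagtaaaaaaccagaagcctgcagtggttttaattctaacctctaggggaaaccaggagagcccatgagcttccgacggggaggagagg
Lss: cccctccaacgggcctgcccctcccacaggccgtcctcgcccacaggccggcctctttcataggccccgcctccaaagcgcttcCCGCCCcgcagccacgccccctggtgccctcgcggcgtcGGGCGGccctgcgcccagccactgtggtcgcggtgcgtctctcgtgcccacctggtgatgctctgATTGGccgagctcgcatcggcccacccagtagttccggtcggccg
Dhcr7: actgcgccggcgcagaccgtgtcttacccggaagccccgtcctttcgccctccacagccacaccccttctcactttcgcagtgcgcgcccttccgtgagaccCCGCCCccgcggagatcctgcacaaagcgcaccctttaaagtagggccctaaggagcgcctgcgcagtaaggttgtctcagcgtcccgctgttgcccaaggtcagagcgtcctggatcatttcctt
Insig1: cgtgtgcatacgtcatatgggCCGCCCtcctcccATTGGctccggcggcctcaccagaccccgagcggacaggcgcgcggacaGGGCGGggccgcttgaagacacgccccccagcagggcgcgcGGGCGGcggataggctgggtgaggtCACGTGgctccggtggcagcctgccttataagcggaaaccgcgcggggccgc
Insig2: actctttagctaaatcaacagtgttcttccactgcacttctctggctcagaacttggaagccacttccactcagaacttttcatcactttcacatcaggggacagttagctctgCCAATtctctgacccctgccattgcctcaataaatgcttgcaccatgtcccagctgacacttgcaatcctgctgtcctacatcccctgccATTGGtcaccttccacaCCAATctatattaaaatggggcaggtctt
These stretches lie at chr13:119690101-119690350, plus strand for Hmgcs1, at chr3:89454291-89454540, plus strand for Pmvk, at chr10:76531355-76531587, plus strand for Lss, at chr7:143822917-143823144, plus strand for Dhcr7, at chr5:28071162-28071362, plus strand for Insig1 and at chr1:121332590-121332839, minus strand for Insig2. CCAAT is in all of them but Dhcr7, GGGCGG in all but Pmvk and Insig2, and CACGTG in Insig1 alone. The counts that follow use the whole windows of 250 bases, exonic bases included, at every RefSeq start. The promoter table held 25 of the 31 members, with 33 promoters. CCAAT was in 21 of the 33, or 63.64%, against 35.52% of the 11206 promoters of the genes in the count table. GGGCGG was in 24 of 33 (72.73%, against 59.4%), CACGTG in 5 of 33 (15.15%, against 8.781%) and TCACNCCAC in 1 of 33 (3.03%, against 1.008%). Among the 12 promoters, from 7 genes, of members called lower in any comparison with WT, 7 held CCAAT, 8 held GGGCGG, 3 held CACGTG and 0 held TCACNCCAC. A match is a run of letters and not a measured binding site, and no match says only that these letters are not in this window.

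In WT the members had a high footprint density, a value that includes mRNA amount as well as ribosomes per mRNA. Their median density over the coding sequence was 102.2 CPM per kb, against 20.73 for the 11009 genes with a coding length, and 25 of the 31 lay above that median. Scd2, a stearoyl-CoA desaturase that makes monounsaturated fatty acids, had the highest density at 972 CPM per kb, the mean of the 2 libraries. It was followed by Msmo1 (541 CPM per kb), which removes methyl groups from the sterol ring, and Hmgcs1 (305 CPM per kb). Cyp51 (298 CPM per kb), Dhcr7 (275 CPM per kb) and Sqle (266 CPM per kb) came next, with overlapping values in the WT libraries. The lowest densities were those of Scap (10.4 CPM per kb), Acaca (7.88 CPM per kb) and Idi1 (5.63 CPM per kb). Idi1 and Acaca share 79.6% and 77.8% of their coding 28-base runs with other genes of the annotation, as do Fdps (98.4%), Acat2 (79.6%, with Acat3) and Fdft1 (52.8%), so their footprints may have been split or dropped in counting and their values are uncertain. Scd1 and Scd2 share 41% and 35.2% of theirs with other genes, and 27.1% of those of Scd1 occur in Scd2. For 21 members no 28-base run was shared, and these include Msmo1, Dhcr7, Hsd17b7, Insig2, Stard4, Pmvk and Lss.

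**Figure D1:**
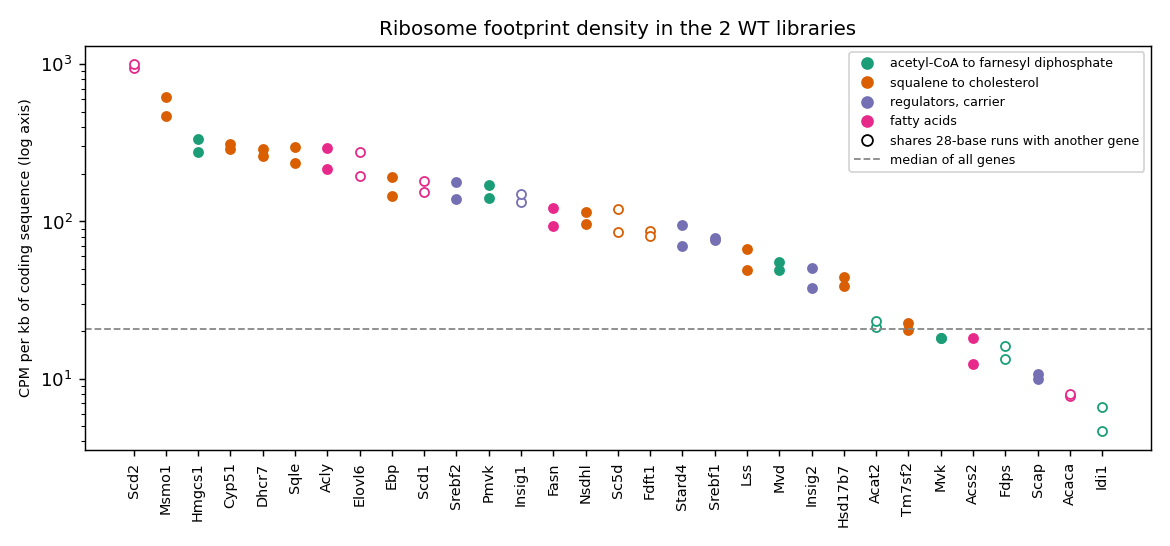
Ribosome footprint density of the 31 members in WT, as CPM per kb of coding sequence on a log axis, with 1 point for each of the 2 WT libraries, coloured by role. Open points are members that share 28-base runs with another gene, and the dashed line is the median of all genes at 20.73, above which 25 members lie.

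Against WT, members were lower more often than higher in every knockout, and 10 of the 31 passed the test as lower in at least 1 comparison. No member passed as higher in the comparisons with WT. The test was edgeR's quasi-likelihood test, 2-sided, with Benjamini-Hochberg adjustment over all genes within each comparison, and a member was called at an adjusted p below 0.05. Averaged over the 4 knockouts, 8 of 31 members fell: the sterol enzymes Msmo1, Hsd17b7 and Dhcr7, the regulators Insig1 and Insig2, the sterol carrier Stard4, and the desaturases Scd1 and Scd2. Over all genes 3.26% passed as lower in that comparison and 3.81% as higher. In 11 members all 8 knockout libraries lay under both WT libraries and in 0 all lay above them, while over all genes these shares were 8.05% and 8.15%. The median log2 fold change was -0.50 over the members and 0.00 over all genes, and 25 members had a negative fold change.

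Fewer members passed in the single knockouts. In Dicer 6 fell (Pmvk, Lss, Msmo1, Stard4, Scd1 and Scd2), where 3.76% of all genes passed as lower and 7.35% as higher. In Drosha 2 fell (Scd1 and Scd2), where 0.966% of all genes passed as lower and 2.48% as higher. In Dgcr8 0 passed, with 0.0182% of all genes lower and 0.0547% higher, and in Ago 0 passed, with 0.902% lower and 1.98% higher. These counts came from edgeR. Without adjustment 11 members lower and 0 higher had a p below 0.05 in Dgcr8, where 517 and 560 of all 10978 genes did. In Ago 8 members were lower and 1 higher (all genes 872 and 1291), and in Drosha 12 and 0 (893 and 1217). In Dicer 12 members were lower and 1 higher (1304 and 1661), and in the mean 14 and 1 (1198 and 1409). DESeq2 called 1 member lower in Dgcr8 (Insig1), and 3 lower (Insig2, Stard4 and Scd1) and 1 higher (Ebp) in Ago, and it called Ebp higher in Dicer and in the mean as well. limma-voom called 0 members in Dgcr8 and 4 lower in Ago (Hsd17b7, Insig2, Stard4 and Scd1).

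Median log2 fold changes of the members were -0.61 in Drosha, -0.59 in Dgcr8, -0.57 in Dicer and -0.30 in Ago, while the medians over all genes lay between -0.01 and 0.04. Both Dgcr8 libraries lay under both WT libraries in 20 members and above them in 1, against 22.9% and 22% of all genes. In Drosha this held for 21 members below and 0 above, against 27.9% and 25.9% of all genes. In Dicer it held for 20 below and 4 above, against 34.6% and 32.7%, and in Ago for 14 below and 4 above, against 26.1% and 27.2%. These comparisons share the same 2 WT libraries. Leaving out WT library 1 or WT library 2 took every call away, so that 0 members passed in any comparison. That leaves WT with 1 library, which is then assumed to vary like the other groups. Leaving out Drosha library 1 or 2 took the Drosha calls to 0, and leaving out Dicer library 1 or 2 took the Dicer calls to 0, while leaving out Ago library 1 raised the Dicer calls to 10. Without Dicer library 2, 5 members rather than 8 passed in the mean of the 4 knockouts.

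**Figure D2:**
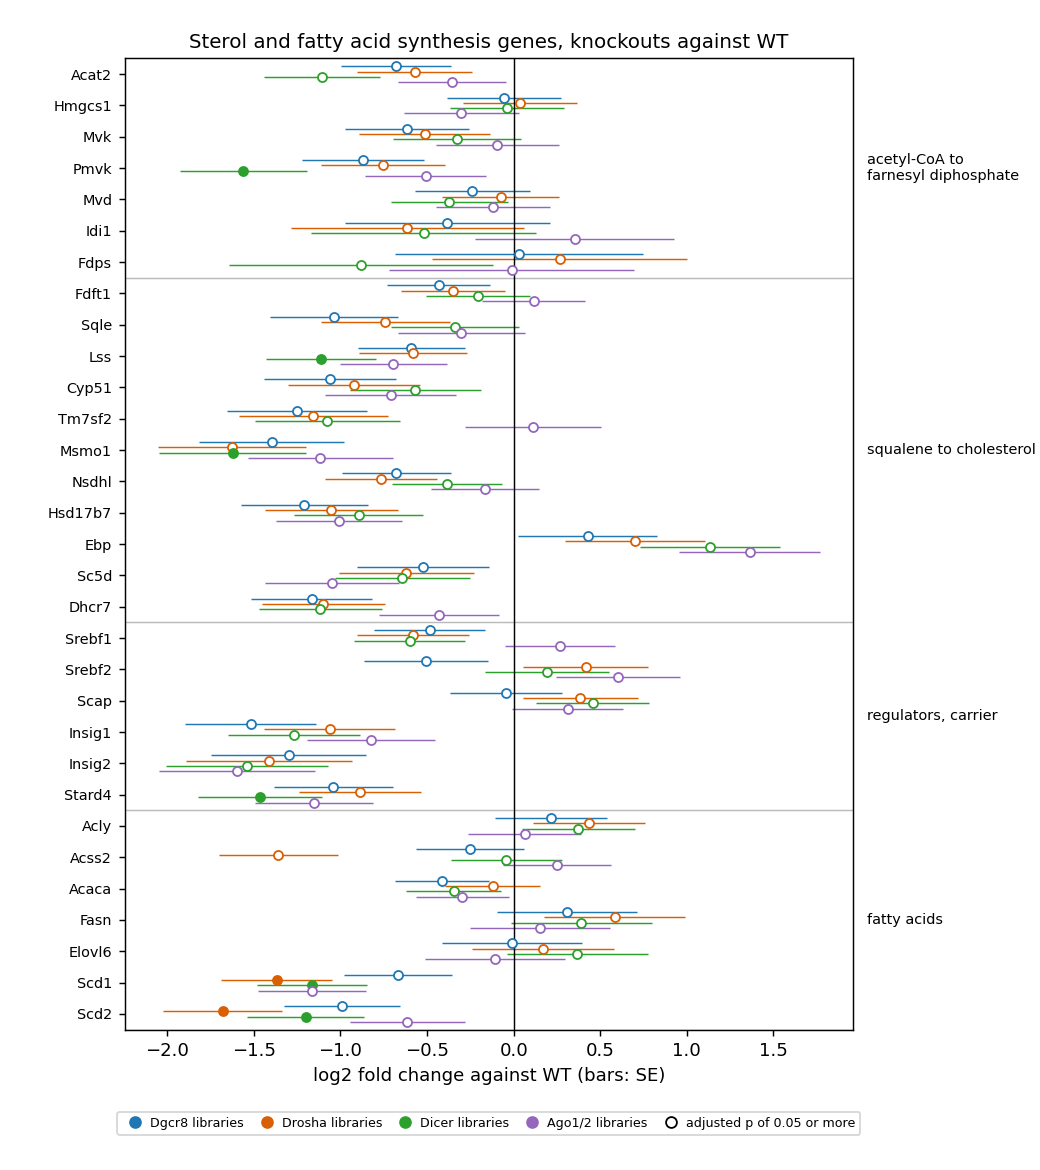
log2 fold change of each member against WT (x axis) in the 4 knockouts, with bars of 1 SE, ordered by role. Filled points passed an adjusted p of 0.05, namely Scd1 and Scd2 in Drosha and Pmvk, Lss, Msmo1, Stard4, Scd1 and Scd2 in Dicer. Ebp is on the positive side in all 4 groups.

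The enzymes from squalene to cholesterol had the lowest medians of the 4 roles in Dgcr8 (-1.04) and Drosha (-0.77) and in the Ago libraries (-0.43), and stood at -0.64 in Dicer and -0.74 in the mean. Msmo1, the sterol methyl oxidase, gave CPM values of 539.9 and 412 for WT, 256 and 104 for Dgcr8, 195 and 114 for Drosha, 186 and 122 for Dicer and 236 and 203 for Ago. Every knockout library was under both WT libraries, and the highest of them was a Dgcr8 library. Msmo1 (chr8:64718139-64733792, minus strand, on GRCm38 as for all genes below) fell in the mean of the 4 knockouts (log2 fold change -1.44, SE 0.30, adjusted p 0.0171) and in Dicer (log2 fold change -1.62, SE 0.43, adjusted p 0.0322). Its fold changes in Drosha (log2 fold change -1.63, SE 0.43, adjusted p 0.0612), Dgcr8 (log2 fold change -1.40, SE 0.42, adjusted p 0.317) and Ago (log2 fold change -1.11, SE 0.42, adjusted p 0.167) did not pass. The call in the mean of the 4 was lost without either WT library (adjusted p 0.164 to 0.204), and that in Dicer without either WT library or either Dicer library (adjusted p 0.109 to 0.178).

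Hsd17b7, a ketoreductase that acts in the removal of the methyl groups that Msmo1 oxidises, gave CPM values of 42.2 and 48.4 for WT, 22.3 and 16.5 for Dgcr8, 29.5 and 14.4 for Drosha, 27.3 and 21 for Dicer and 26 and 19.1 for Ago. All 8 knockout libraries lay under both WT libraries. Hsd17b7 (chr1:169949535-169969241, minus strand) fell in the mean of the 4 knockouts (log2 fold change -1.04, SE 0.27, adjusted p 0.0401), and its single fold changes of -1.21, -1.05, -0.90 and -1.01 in Dgcr8, Drosha, Dicer and Ago did not pass. The call was lost without either WT library, either Dicer library or Dgcr8 library 2 (adjusted p 0.0558 to 0.437). Dhcr7 (chr7:143823145-143848410, plus strand), which catalyses a late reduction on the way to cholesterol, gave CPM values of 412 and 372 for WT, 199.9 and 149 for Dgcr8, 222 and 144 for Drosha, 226 and 134 for Dicer and 356 and 226 for Ago. Its 8 knockout libraries were again all under WT, though Ago library 1 came close to WT. Dhcr7 fell in the mean of the 4 knockouts (log2 fold change -0.95, SE 0.26, adjusted p 0.0474), with the adjusted p nearest to the threshold among the 8. The call was lost without either WT library, Dgcr8 library 2, Drosha library 2, Dicer library 2 or Ago library 2 (adjusted p 0.0551 to 0.338).

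Lss, the cyclase that makes lanosterol, gave CPM values of 109 and 146 for WT, 81.1 and 88.5 for Dgcr8, 61.7 and 108 for Drosha, 54.4 and 64 for Dicer and 82 and 75.8 for Ago. Lss (chr10:76531588-76557138, plus strand) fell in Dicer (log2 fold change -1.11, SE 0.32, adjusted p 0.0431), and Drosha library 2 nearly reached WT library 1. The call was lost without either WT library or either Dicer library (adjusted p 0.0993 to 0.305). The other enzymes of the branch did not pass in any comparison with WT. Cyp51, the lanosterol demethylase, gave CPM values of 466 and 434 for WT, 258 and 173 for Dgcr8, 299 and 177 for Drosha, 389 and 217 for Dicer and 341 and 209 for Ago, with all knockout libraries under WT and a log2 fold change in the mean of the 4 of -0.81 (SE 0.28, adjusted p 0.108). Tm7sf2, a sterol reductase, was near WT in Ago (0.11) and at -1.25, -1.16 and -1.07 in Dgcr8, Drosha and Dicer. Sqle, Nsdhl, Sc5d and Fdft1, which act between squalene and the late sterols or make squalene, had log2 fold changes in the mean of the 4 of -0.60, -0.50, -0.71 and -0.22.

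Ebp, the sterol isomerase, had a positive fold change in all 4 knockouts. It gave CPM values of 132 and 99.8 for WT, 144 and 168 for Dgcr8, 249.5 and 128 for Drosha, 321 and 186 for Dicer and 387 and 209.5 for Ago, and both Dgcr8, both Dicer and both Ago libraries were above both WT libraries, while Drosha library 2 was between them. Its fold changes were 1.36 (SE 0.40, adjusted p 0.0934) in Ago, 1.13 (SE 0.40, adjusted p 0.0936) in Dicer and 0.91 (SE 0.34, adjusted p 0.127) in the mean, none of which passed with edgeR. In Ago and Dicer its footprint density was 432 and 368 CPM per kb, against 168 in WT, while that of Msmo1 was 249.8 and 175 CPM per kb, against 541 in WT.

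**Figure D3:**
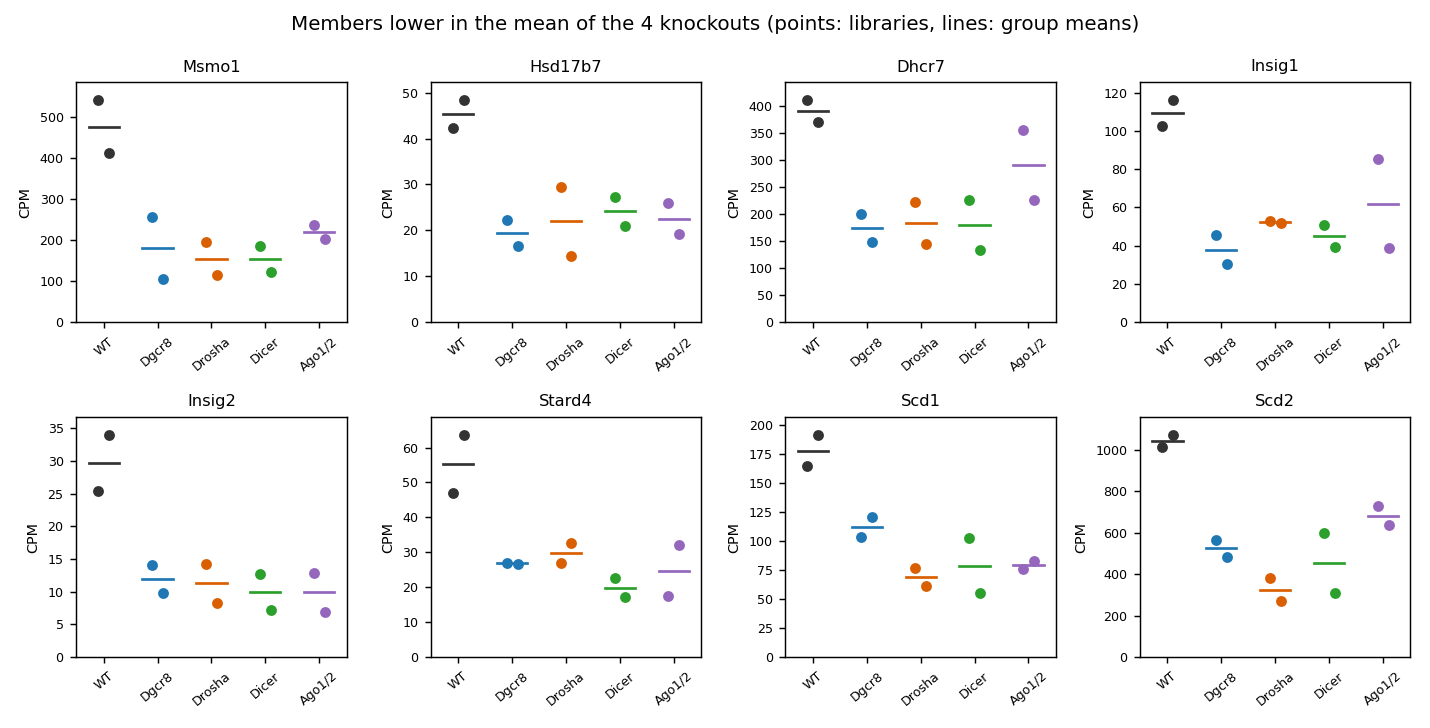
CPM of the 8 members that fell in the mean of the 4 knockouts, 1 panel each with a y axis from 0. Points are libraries (library 1 at left) and lines are group means, and in all 8 panels the 8 knockout points lie under both WT points.

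Among the 7 enzymes from acetyl-CoA to farnesyl diphosphate, 1 passed. Pmvk, the phosphomevalonate kinase, gave CPM values of 80.8 and 98.4 for WT, 46.1 and 52 for Dgcr8, 42.2 and 63.8 for Drosha, 29.5 and 31.4 for Dicer and 41.7 and 84.3 for Ago. Both Dicer libraries were the lowest of all 10, and Ago library 2 lay between the WT libraries. Pmvk (chr3:89454541-89469013, plus strand) fell in Dicer (log2 fold change -1.56, SE 0.37, adjusted p 0.0203), a call lost without either WT library or either Dicer library (adjusted p 0.0695 to 0.165). Hmgcs1, at the entry of the route, gave CPM values of 431 and 520.4 for WT, 407 and 508 for Dgcr8, 324 and 652 for Drosha, 476 and 451 for Dicer and 359 and 413 for Ago. Its groups overlapped WT in all but Ago, and its log2 fold change in the mean of the 4 was -0.09 (SE 0.26, adjusted p 0.876). The medians of the 7 enzymes were -0.52 in Dicer, -0.51 in Drosha, -0.38 in Dgcr8 and -0.12 in Ago. Acat2, the acetoacetyl-CoA thiolase, came nearest to the threshold after Pmvk with -1.11 (SE 0.34, adjusted p 0.055) in Dicer. Mvk and Mvd, which phosphorylate and decarboxylate mevalonate derivatives, had log2 fold changes in the mean of the 4 of -0.39 and -0.20, and Idi1 and Fdps had -0.29 and -0.15 with SE of 0.46 and 0.56, the widest of the 31.

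The regulators divided into genes that fell and genes that did not pass. Insig1, which holds Scap in the endoplasmic reticulum when sterols are plentiful and is itself a known SREBP target, gave CPM values of 103 and 116 for WT, 45.6 and 30.3 for Dgcr8, 52.8 and 52 for Drosha, 51 and 39.2 for Dicer and 85.4 and 38.6 for Ago. All knockout libraries were under WT, with Ago library 1 the nearest to it. Insig1 (chr5:28071363-28078662, plus strand) fell in the mean of the 4 knockouts (log2 fold change -1.17, SE 0.27, adjusted p 0.0269) and had the smallest p of all members in Dgcr8, where it did not pass (log2 fold change -1.52, SE 0.38, adjusted p 0.258). The call in the mean was lost without either WT library or Dicer library 2 (adjusted p 0.0511 to 0.339). Insig2, the second Insig protein, gave CPM values of 25.4 and 34 for WT, 14.1 and 9.76 for Dgcr8, 14.2 and 8.3 for Drosha, 12.7 and 7.17 for Dicer and 12.9 and 6.87 for Ago. Its knockout values lay between 6.87 and 14.2 CPM. Insig2 (chr1:121304353-121332589, minus strand) fell in the mean of the 4 (log2 fold change -1.46, SE 0.32, adjusted p 0.0223), with -1.60 (SE 0.45, adjusted p 0.083) in Ago and -1.54 (SE 0.47, adjusted p 0.0562) in Dicer. Stard4, which moves cholesterol between membranes, gave CPM values of 46.8 and 63.6 for WT, 27 and 26.7 for Dgcr8, 26.9 and 32.8 for Drosha, 22.5 and 17.1 for Dicer and 17.5 and 32.1 for Ago. It fell in Dicer (log2 fold change -1.46, SE 0.36, adjusted p 0.0245) and in the mean of the 4 (log2 fold change -1.14, SE 0.25, adjusted p 0.0223), and every knockout library was under both WT libraries. The Stard4 call in Dicer was lost without either WT library or either Dicer library and with limma-voom (adjusted p 0.0642 to 0.21). In the mean of the 4 the call of Insig2 was lost without either WT library (adjusted p 0.118 to 0.38) and that of Stard4 without either WT library (adjusted p 0.113 to 0.414).

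The genes for the SREBPs themselves did not pass in any comparison with WT. Srebf2, the main activator of sterol genes, gave CPM values of 603 and 473 for WT, 380.4 and 377 for Dgcr8, 875 and 560.5 for Drosha, 814 and 415 for Dicer and 932 and 702 for Ago. Both Dgcr8 libraries were under WT and both Ago libraries above it, with fold changes of -0.51 (SE 0.36, adjusted p 0.705) and 0.60 (SE 0.36, adjusted p 0.39). Set directly against each other, Dgcr8 was lower than Ago by 1.11 (SE 0.36, adjusted p 0.217) on the log2 scale, which did not pass either. Srebf1, which drives fatty acid genes as well, gave CPM values of 259.7 and 267 for WT, 176 and 201 for Dgcr8, 217 and 135 for Drosha, 217 and 129.6 for Dicer and 353 and 282 for Ago, with -0.60 (SE 0.32, adjusted p 0.255) in Dicer and 0.27 (SE 0.32, adjusted p 0.701) in Ago. Scap gave CPM values of 41.2 and 38.1 for WT, 38.3 and 38.6 for Dgcr8, 65.4 and 38.4 for Drosha, 66.4 and 41.4 for Dicer and 52.2 and 46.3 for Ago. Its log2 fold change in the mean of the 4 was 0.28 (SE 0.26, adjusted p 0.564).

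Srebf2 (chr15:82147181-82205379, plus strand, GRCm38) also hosts a miRNA, which is shown because the knockouts are labelled as lacking proteins of miRNA biogenesis or action. The mature sequences of miR-33 from RefSeq, with bases 2 to 8, the seed, in capitals, are:
mmu-miR-33-5p: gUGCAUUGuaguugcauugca
mmu-miR-33-3p: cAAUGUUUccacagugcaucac
They lie at chr15:82198127-82198147, plus strand and chr15:82198167-82198188, plus strand, within an intron of Srebf2. miR-33 is known to repress sterol exporters. No miRNA was measured in these libraries, and its part in any value given here was not tested.

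The fatty acid enzymes were split by step. Scd1 (chr19:44394455-44407879, minus strand) and Scd2 (chr19:44293674-44306864, plus strand) place the first double bond into saturated fatty acids. Scd1 gave CPM values of 165 and 192 for WT, 104 and 121 for Dgcr8, 77 and 61.2 for Drosha, 102 and 55.2 for Dicer and 75.8 and 83.1 for Ago. Scd2 gave CPM values of 1014 and 1073 for WT, 564 and 485 for Dgcr8, 381 and 270.0 for Drosha, 596 and 309 for Dicer and 727 and 636 for Ago. In both genes all 8 knockout libraries were under both WT libraries, and Drosha held the lowest group mean. Scd2 fell in Drosha (log2 fold change -1.68, SE 0.34, adjusted p 0.027), Dicer (log2 fold change -1.20, SE 0.34, adjusted p 0.0411) and the mean of the 4 (log2 fold change -1.12, SE 0.24, adjusted p 0.0212). Scd1 fell in Drosha (log2 fold change -1.37, SE 0.32, adjusted p 0.0417), Dicer (log2 fold change -1.16, SE 0.32, adjusted p 0.0367) and the mean (log2 fold change -1.09, SE 0.23, adjusted p 0.0177), and reached -1.17 (SE 0.31, adjusted p 0.0728) in Ago. Given their shared 28-base runs, footprints of these 2 neighbouring genes could have been assigned to each other in part. In Drosha the call of Scd1 was lost without either WT library or either Drosha library and with limma-voom (adjusted p 0.0755 to 0.297) and that of Scd2 without either WT library or either Drosha library (adjusted p 0.0583 to 0.208). In Dicer Scd1 was lost without either WT library or either Dicer library (adjusted p 0.052 to 0.238) and Scd2 without either WT library or either Dicer library (adjusted p 0.0514 to 0.254). In the mean of the 4 Scd1 was lost without either WT library (adjusted p 0.122 to 0.314) and Scd2 without either WT library (adjusted p 0.152 to 0.281).

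None of the enzymes that make palmitate passed in a comparison with WT. Fasn, the fatty acid synthase, gave CPM values of 702 and 918 for WT, 621 and 1386 for Dgcr8, 820.3 and 1604 for Drosha, 1026 and 1097 for Dicer and 878 and 922 for Ago. Acly, which makes cytosolic acetyl-CoA from citrate, gave CPM values of 711 and 973 for WT, 778 and 1179 for Dgcr8, 894 and 1384 for Drosha, 1116 and 1067 for Dicer and 942 and 818 for Ago. The knockout libraries overlapped WT in all groups but Dicer, where both genes were above WT in both libraries, and their log2 fold changes in the mean of the 4 were 0.36 (SE 0.33, adjusted p 0.554) and 0.27 (SE 0.26, adjusted p 0.575). Elovl6, an elongase, and Acaca, the carboxylase of the first committed step, were at 0.10 and -0.29 in the mean. Acss2, which makes acetyl-CoA from acetate, gave CPM values of 26.6 and 39.1 for WT, 26.2 and 29.1 for Dgcr8, 15.3 and 10.5 for Drosha, 33.8 and 29.8 for Dicer and 43.4 and 34.8 for Ago. Both Drosha libraries were the lowest of all 10, at -1.36 (SE 0.34, adjusted p 0.055) against WT, which did not pass with edgeR but did with DESeq2.

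Between knockouts, 0 members passed in any of the 6 pairs with edgeR. Over all genes the share called in either direction was 0.501% between Dgcr8 and Drosha, 4.07% between Dgcr8 and Dicer, 0.483% between Dgcr8 and Ago, 0.00911% between Drosha and Dicer, 0.0455% between Drosha and Ago and 0.547% between Dicer and Ago. Without adjustment 3, 0, 4, 1, 4 and 4 members had a p below 0.05 in these pairs, in that order. Of all 10978 genes, 511 higher and 747 lower had such a p between Dgcr8 and Drosha. There were 822 and 1266 between Dgcr8 and Dicer, 505 and 864 between Dgcr8 and Ago, and 383 and 446 between Drosha and Dicer. Drosha and Ago had 473 and 542, and Dicer and Ago 688 and 657. limma-voom called 0 members, and DESeq2 called 1, Acss2 between Drosha and Ago. That gene had the smallest p with edgeR too, at -1.61 (SE 0.34, adjusted p 0.124). Tm7sf2 was at -1.36 (SE 0.41, adjusted p 0.177) in Dgcr8 against Ago.

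The levels in CPM were also summed over each role in every library. The 11 enzymes from squalene to cholesterol summed to 2578 and 2226 for WT, 1498 and 1054 for Dgcr8, 1639 and 1094 for Drosha, 1968 and 1198 for Dicer and 2146 and 1545 for Ago. Every knockout library was under both WT libraries, and library 2 was lower than library 1 in all 5 groups. The 7 enzymes of fatty acid synthesis summed to 2896 and 3408 for WT, 2319 and 3434 for Dgcr8, 2495 and 3552 for Drosha, 3248 and 2761 for Dicer and 2948 and 2655 for Ago, and every knockout overlapped WT. The mevalonate enzymes summed to 638 and 756 for WT, 532 and 692 for Dgcr8, 450.0 and 861 for Drosha, 589 and 580.3 for Dicer and 521 and 618 for Ago. Both Dicer and both Ago libraries were under both WT libraries there, while Dgcr8 and Drosha overlapped WT. The regulators, in which Srebf2 weighs most, summed to 1079 and 993 for WT, 681 and 684 for Dgcr8, 1252 and 827 for Drosha, 1184 and 649 for Dicer and 1453 and 1108 for Ago. Both Dgcr8 libraries were under both WT libraries and both Ago libraries above them, while Drosha and Dicer overlapped WT.

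Markers of other cell types moved beside these sums. The endoderm sum, given above, was far lower in Drosha, Dicer and Ago than in WT. In Dgcr8 it was lower than in WT in both libraries as well, and higher in library 1 than in library 2. Of 9 trophectoderm markers listed, Cdx2, Eomes, Elf5 and Gata3 were not in the count table. The other 5, Tfap2c, Krt7, Krt8, Krt18 and Krt19, summed to 149.5 and 182 CPM for WT and 157 and 228 for Dgcr8. Their sum was 377 and 375 for Drosha, 857 and 618 for Dicer and 184 and 205 for Ago. Of these 5 genes, 4 rose in Dicer and 2 in Drosha, where 7.35% and 2.48% of all genes passed as higher. In Dicer the keratins Krt8, Krt18 and Krt19 made up most of the sum. Of 8 fibroblast markers listed, Col1a1, Col1a2, Col3a1 and Postn were not in the count table. The other 4, Col6a2, Fbln2, Mmp2 and Thy1, summed to 248 and 219.9 CPM for WT and 173 and 61.4 for Dgcr8. Their sum was 106 and 73 for Drosha, 85.4 and 41.4 for Dicer and 158 and 85.8 for Ago. In Dicer 3 of these 4 fell, where 3.76% of all genes passed as lower. Neither the trophectoderm nor the fibroblast sum by itself names a cell type. Among the stem cell markers Klf4 fell in Drosha, Dicer and Ago. The part of these cell types in the members' values was not tested.

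**Figure D4:**
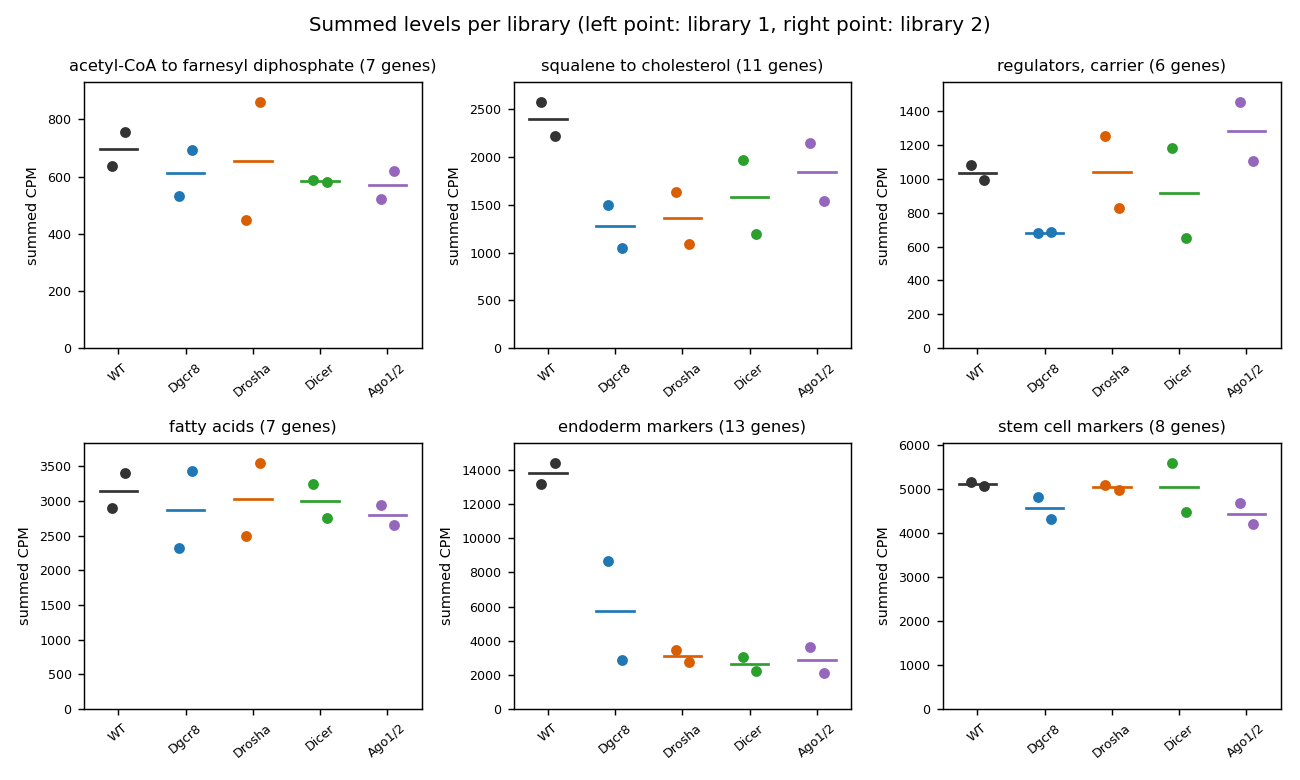
Summed CPM per library for the 4 roles, the 13 endoderm markers and the 8 stem cell markers, with y axes from 0. Points are libraries (library 1 at left, library 2 at right) and lines group means. The squalene to cholesterol sum of every knockout library is under WT, and the endoderm sum of Dgcr8 library 1 is the nearest to WT among the knockout libraries.

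Genes around these routes were read from lists given by function. Of 5 genes tested for LXR and sterol export, 1 rose in Drosha, 2 in Dicer, 1 in Ago and 1 in the mean. The median log2 fold changes were 0.96, 1.48, 1.20 and 1.02 in those comparisons, against -0.01, 0.00, 0.04 and 0.00 over all genes. The shares of all genes that passed as higher there were 2.48%, 7.35%, 1.98% and 3.81%. In Dgcr8 0 of the 5 passed, and their median was 0.33. Abca1, which exports cholesterol to lipoproteins, gave CPM values of 94.2 and 68 for WT, 105 and 97.8 for Dgcr8, 445 and 261 for Drosha, 594 and 328 for Dicer and 484 and 288 for Ago. The Drosha, Dicer and Ago libraries were all far above WT, and the Dgcr8 libraries were just above it. Abca1 rose in Drosha (log2 fold change 2.12, SE 0.40, adjusted p 0.0185), Dicer (log2 fold change 2.51, SE 0.40, adjusted p 0.00362), Ago (log2 fold change 2.25, SE 0.40, adjusted p 0.0169) and the mean (log2 fold change 1.80, SE 0.34, adjusted p 0.0115). In Dgcr8 its fold change was 0.33 (SE 0.38, adjusted p 0.848). The Abca1 call was lost in Drosha without either WT library or Drosha library 1 (adjusted p 0.0765 to 0.22), in Dicer without WT library 2 (adjusted p 0.0649), in Ago without either WT library or Ago library 1 (adjusted p 0.0634 to 0.246) and in the mean without either WT library (adjusted p 0.0856 to 0.255). Abcg1, an exporter to mature lipoproteins, gave CPM values of 69.1 and 57.2 for WT, 69 and 66.3 for Dgcr8, 173 and 106 for Drosha, 253 and 97.6 for Dicer and 190.0 and 131 for Ago and rose in Dicer (log2 fold change 1.48, SE 0.42, adjusted p 0.042), where Dicer library 1 stood apart at 253 CPM. That call was lost without either WT library, Dgcr8 library 2 or Dicer library 1 and with limma-voom and without both Dgcr8 libraries (adjusted p 0.05 to 0.471).

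Of 15 other sterol enzymes and carriers, 1 fell in Drosha, 1 in Dicer and 1 in the mean, and this was Soat1 each time. Over all genes 0.966%, 3.76% and 3.26% passed as lower in those comparisons. Soat1, which esterifies cholesterol for storage, gave CPM values of 210.4 and 212 for WT, 126 and 110.4 for Dgcr8, 107 and 64.7 for Drosha, 94.5 and 75.6 for Dicer and 132 and 99.1 for Ago. All 8 knockout libraries were under both WT libraries. Its fold changes were -1.30 (SE 0.31, adjusted p 0.0431) in Drosha, -1.31 (SE 0.31, adjusted p 0.0199) in Dicer and -1.08 (SE 0.22, adjusted p 0.0162) in the mean. The call in Drosha was lost without either WT library, either Dicer library or Drosha library 2 and with limma-voom and with only the groups compared (adjusted p 0.05 to 0.271), that in Dicer without either WT library or either Dicer library (adjusted p 0.1 to 0.133) and that in the mean without either WT library (adjusted p 0.153 to 0.247). Of the 14 genes of SREBP processing and decay and the 12 genes of other isoprenoid branches, 0 passed with edgeR in any comparison with WT. With edgeR and no adjustment, at most 1 gene per direction of each list had a p below 0.05 in any of these comparisons. DESeq2 called 1 gene of SREBP processing lower in Dicer and none of either list otherwise, and limma-voom called none.

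Fatty acid oxidation, the opposite route, had members that rose: 2 of 12 in Drosha, 3 in Dicer, 1 in Ago and 3 in the mean. Over all genes 2.48%, 7.35%, 1.98% and 3.81% passed as higher in those comparisons. The median log2 fold changes of the oxidation genes were 0.19 in Drosha, 0.39 in Dicer, 0.30 in Ago, 0.15 in the mean and -0.12 in Dgcr8. In the mean and in Dgcr8, 6 of the 12 genes had a positive fold change and 6 a negative one. Slc25a20, which carries acylcarnitines into mitochondria, gave CPM values of 52.2 and 36.5 for WT, 81.8 and 134 for Dgcr8, 193 and 204 for Drosha, 204 and 195 for Dicer and 174 and 117 for Ago. All knockout libraries were above both WT libraries. It rose in Drosha (log2 fold change 2.16, SE 0.33, adjusted p 0.0117), Dicer (log2 fold change 2.17, SE 0.33, adjusted p 0.00315), Ago (log2 fold change 1.71, SE 0.33, adjusted p 0.0208) and the mean (log2 fold change 1.83, SE 0.29, adjusted p 0.00643). Hadhb, a subunit of the mitochondrial trifunctional protein, gave CPM values of 7.28 and 12.6 for WT, 16.9 and 38.5 for Dgcr8, 30.1 and 24.9 for Drosha, 36.2 and 29.2 for Dicer and 21.9 and 33.4 for Ago and rose in Dicer (log2 fold change 1.72, SE 0.45, adjusted p 0.0314) and the mean (log2 fold change 1.52, SE 0.38, adjusted p 0.0348). Acadl, a long-chain dehydrogenase, fell in Ago alone among the comparisons with WT, from 75 and 78.9 to 29.6 and 17.4 CPM (log2 fold change -1.72, SE 0.35, adjusted p 0.0269). The Slc25a20 call was lost in Drosha without either WT library (adjusted p 0.0551 to 0.204), in Dicer without WT library 2 (adjusted p 0.0619), in Ago without either WT library or Ago library 1 (adjusted p 0.0787 to 0.306) and in the mean without WT library 2 (adjusted p 0.172). That of Hadhb was lost in Dicer without either WT library or either Dicer library (adjusted p 0.0786 to 0.213) and in the mean without either WT library, either Dicer library or Drosha library 1 (adjusted p 0.0523 to 0.324), and that of Acadl without either WT library or Ago library 2 and with library number block (adjusted p 0.0612 to 0.244).

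Of 21 other fatty acid enzymes, 1 rose in Dicer and 1 fell in the mean. Over all genes 7.35% passed as higher in Dicer and 3.26% as lower in the mean. Acsl5, an acyl-CoA synthetase, rose in Dicer from 23 and 18.6 to 175 and 105 CPM (log2 fold change 2.76, SE 0.50, adjusted p 0.00623), and Acsl3, another such synthetase tied to lipid droplets, fell in the mean (log2 fold change -1.30, SE 0.34, adjusted p 0.0411). Acsl3 gave CPM values of 515 and 457 for WT, 296 and 176 for Dgcr8, 256 and 87.4 for Drosha, 237 and 118 for Dicer and 216 and 207 for Ago, with all knockout libraries under WT. The call of Acsl5 was lost without WT library 2 or Dicer library 1 (adjusted p 0.0583 to 0.0898) and that of Acsl3 without either WT library, either Ago library, Dgcr8 library 2 or Dicer library 2 (adjusted p 0.0548 to 0.298). In Dgcr8 0 genes of any of these lists passed with edgeR, where 4 other sterol genes and 2 other fatty acid genes were lower and 2 oxidation genes and 1 isoprenoid gene were higher at an unadjusted p below 0.05. Of all 10978 genes 517 were lower and 560 higher in Dgcr8 at that p. DESeq2 called 1 oxidation gene higher there, and limma-voom called none.

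**Figure D5:**
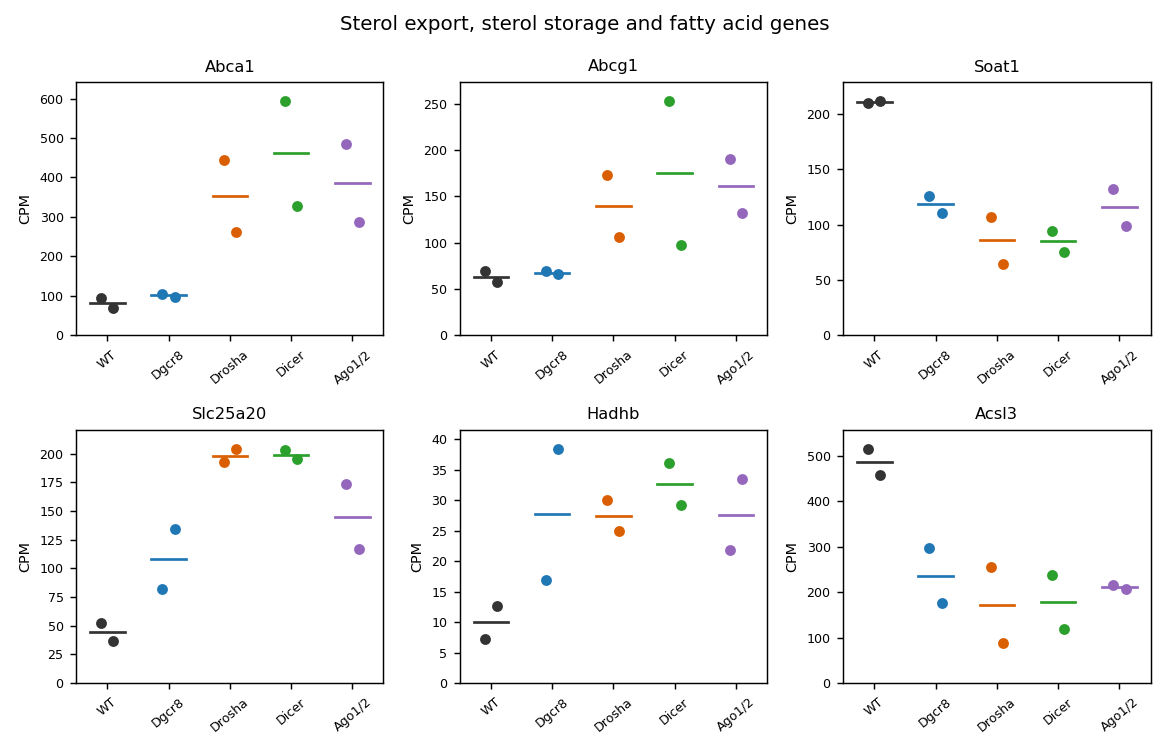
CPM per library of 6 genes around the 2 routes, with y axes from 0, points for libraries (library 1 at left) and lines for group means. Abca1 and Abcg1 export sterols, Soat1 stores them, Slc25a20 and Hadhb act in fatty acid oxidation, and Acsl3 is an acyl-CoA synthetase. Soat1 and Acsl3 are under WT in all 8 knockout libraries and Slc25a20 is above WT in all 8.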

How the data were processed

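Per the labels' protocols, footprints were cut with RNase I and isolated on columns as monosomes, and libraries followed rRNA removal and a small RNA kit. The submitters' processing notes name Trimmomatic, Bowtie2, mm10 (GRCm38) and dm6 (BDGP6), with no versions or roles. The authors deposited 1 table of whole-number read counts per gene and library, not normalized, and the counting tool, annotation and strand setting are not given in the sources used here. Columns were matched to samples by the library number in the labels, since the Ago columns carry other replicate numbers than the titles. The 16 symbols that had become dates were repaired from the gene identifiers.

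The test used edgeR 4.0.16 in R 4.3.3, with TMM scaling, filterByExpr (33 genes removed) and a quasi-likelihood fit with 1 mean per group over all 10 libraries, which left 5 residual degrees of freedom. The biological coefficient of variation was 0.306. CPM values use the scaled library sizes, and each SE is the size of the log2 fold change divided by the root of its F statistic. DESeq2 1.42.0, limma 3.58.1 (voom), other scalings and filters, blocks, fits of only the groups compared, and fits without single libraries or without both Dgcr8 libraries were alternatives. The code was tested on simulated data with less spread than these libraries, which checks the code and not the calls. A floor of 3 counts was 0.0371 to 1.71 CPM per library, and covers counting error only.

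The members and the lists were chosen with earlier results of these data known. Every library's values are given for members past the threshold in any comparison with WT, for the 3 members of smallest p in each, and for Srebf1, Srebf2, Scap, Insig1 and Insig2. Of the other lists, members past the threshold are named, up to 4 per list and comparison. Cyp51, Hmgcs1, Fasn, Acly, Ebp and the other members named in part were added after their values were seen. Some listed genes are counted but not named here. Coordinates and coding lengths came from GENCODE M21 on GRCm38, and a 28-base run counts as shared when it occurs in a transcript of another gene.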

Additional observations from a re-analysis of the deposited data

How the results depend on the processing

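Under the alternatives run, no median of the members against WT and no member's fold change against WT that had passed changed direction. Among fold changes that had not passed, several near 0 changed sign under at least 1 alternative, among them those of Hmgcs1, Fdps and Elovl6 in the mean of the 4, of Srebf2 in Dicer, of Scap in Drosha and Dgcr8, of Fasn and Acly in Dgcr8 and Ago, and of Dhcr7 in Ago. In Dicer, where 6 members fell, DESeq2 called 10 lower, the fit of only these groups 12, and leaving out single libraries 0 to 10. In Drosha, where 2 fell, DESeq2 called 5, limma-voom 1 and fits without single libraries 0 to 3. In Ago, where 0 passed, DESeq2 called 3 lower, limma-voom 4 and the fit of only these groups 2, and in Dgcr8 DESeq2 called 1. DESeq2 called 1 member higher in Ago, in Dicer and in the mean of the 4, the fit of only these groups 1 higher in Dicer, and over the 6 pairs of knockouts DESeq2 called 1. In the mean of the 4, where 8 fell, fits without single libraries called 0 to 9. The members' median log2 fold change in Drosha was -0.57 with total counts, -0.58 with upper-quartile scaling, -0.60 with limma-voom and -0.64 to -0.59 without single libraries. Without single libraries it was -0.31 to -0.15 in Ago and -0.71 to -0.53 in Dgcr8. The cause of these shifts was not tested, except that leaving out a library leaves fewer samples.

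The replicate numbers of the titles, which for Ago differ from the numbers that its columns carry, were tried as a replicate block. With this block 11 members were called lower and 1 higher in Dicer, 6 lower in Drosha, 5 lower and 1 higher in Ago, and 14 lower and 1 higher in the mean of the 4. Deviations from group means of same-numbered libraries correlated at 0.061 to 0.287 over all genes and 0.183 to 0.713 over the members, with 2 numbers per group, and no label says that a number marks a shared day or culture, so the libraries were not treated as paired. A block of library number ranges, added after seeing the data, gave 2 lower in Dgcr8, 7 in Drosha, and 11 lower and 1 higher in Dicer. Ago library 2 was alone in its range, so the Ago values of this fit rest on Ago library 1, the loss of Acadl included. Counts for Ago, the mean of the 4 and the pairs are therefore not given for this block.

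With 2 libraries per group and as few as 6 counts for a member in Drosha library 1, differences of small size were not detectable at this depth.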
